A study of Mus musculus with 6 samples.

Results

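The regions described here are the p65 peaks of mouse epidermal cells that lie at the promoters of protein-coding genes. A peak was placed in this set when its midpoint lay less than 1000 bp from the closest start of transcription (curated RefSeq transcripts, mm10) and that start site belonged to a protein-coding gene. The rule used position only, so that strength, sequence and sharing were free to vary. It selected 2934 of the 8525 peaks in adult epidermis, 1270 of 4169 in the epidermis of aged mice given IgG (aged/IgG control), and 1881 of 6014 in that of aged mice given blocking antibodies (aged/anti-IL-17A/F). These peaks lay at 2774, 1231 and 1794 genes, respectively, out of 20923 protein-coding genes with a curated start site. For short, these lists are called adult, aged IgG and aged anti-IL-17.

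p65 is the product of Rela, a subunit of the transcription factor NF-κB, and ChIP–seq recovers the DNA fragments that an antibody against it pulls down with chromatin. All mice were C57bl/6J, and the epidermal cells were released from skin with trypsin, a preparation that can also hold immune cells and melanocytes of the epidermis. No treatment is stated for the adult mice. The aged mice received intraperitoneal antibodies that block IL-17A and IL-17F, or a control IgG, for 12 weeks from 73 weeks of age. The 4 mice of a condition were merged before the peaks were called, so that each condition is represented by 1 list without replicates and no test between conditions could be made. Intervals given with shares are 95% Wilson intervals, those of differences are Newcombe intervals, and both cover counting error only, since peaks of 1 pool are not replicates. Per the study's general methods, adult animals were 17 to 25 weeks old and aged animals 80 to 90 weeks old. The 3 input libraries were not analysed here.

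One property of the lists stands before every comparison with age. All 8525 peaks of the list labelled adult carry names that start with Treated, as do all 6014 peaks of aged anti-IL-17, whereas the 4169 peaks of aged IgG carry names that start with Control. The groups below follow the labels, and every direction between adult and aged rests on them. Without the list labelled adult, 84.5% of aged IgG promoter peaks still overlapped an aged anti-IL-17 peak, and 56.8% of aged anti-IL-17 promoter peaks overlapped an aged IgG peak.

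In resting cells, NF-κB dimers are held in the cytoplasm by inhibitors of the IκB family. Signals from cytokine receptors, among them those for TNF, IL-1 and IL-17, lead through TRAF and TAK1 complexes to the IκB kinases, which mark the inhibitors for degradation and free the dimers to enter the nucleus. There the dimers bind a short, nearly symmetric DNA element, the κB site, and they activate genes of inflammation and survival as well as the genes of their own inhibitors, which closes a feedback loop. In the epidermis this pathway serves barrier defence and is known for its part in keratinocyte survival and in psoriasis-like inflammation.

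The sequences under promoter peaks of the pathway show what such an element looks like. The following stretches of 30 bases come from mm10 (RefSeq GRCm38.p6), are written 5′ to 3′ on the strand of the gene, and carry a match to the NF-κB motif of 10 letters in capitals. They are examples from genes that encode inhibitors and subunits of NF-κB and had a promoter peak in every list. Each match shown lay within 100 bp of the adult summit. Other such genes are not shown, among them Rela and Rel, which had no match that close.
Nfkbib, chr7:28766497-28766526: ggggcgtgttGGGGAATTCCcgatagggcg
Nfkbia, chr12:55492657-55492686: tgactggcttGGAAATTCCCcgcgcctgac
Nfkbie, chr17:45555584-45555613: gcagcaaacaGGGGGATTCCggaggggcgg
Nfkbid, chr7:30422170-30422199: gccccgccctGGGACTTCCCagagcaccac
Nfkbiz, chr16:55838850-55838879: tttttggcctGGGAATTTCCagcgtgtgga
Nfkb2, chr19:46304716-46304745: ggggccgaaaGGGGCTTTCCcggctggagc
Relb, chr7:19629443-19629472: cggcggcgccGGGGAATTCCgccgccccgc
Tnfaip3, chr10:19015403-19015432: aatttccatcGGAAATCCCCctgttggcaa
Cyld, chr8:88696863-88696892: ttgaccgagcGGAAAGTCCCttcagccagc
Tnip1, chr11:54962979-54963008: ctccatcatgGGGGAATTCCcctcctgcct

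The Nfkbib match lay in the annotated UTR of the gene and the others upstream of the start site, those of Nfkbid, Nfkbiz, Nfkb2 and Cyld within the span of a longer transcript. The matches at Nfkbid and Nfkbiz covered the adult summit itself, that of Nfkb2 lay 5 bp from it, and those of Tnip1 and Nfkbie 18 and 17 bp away. Longer stretches show how 2 matches are spaced in a promoter. The sequence upstream of Nfkbia covers 283 bases, that of Relb 107 bases and that of Cxcl10 169 bases. Nfkbia and Relb are feedback targets, and Cxcl10 encodes a chemokine that draws T cells.
Nfkbia, chr12:55492648-55492930, minus strand: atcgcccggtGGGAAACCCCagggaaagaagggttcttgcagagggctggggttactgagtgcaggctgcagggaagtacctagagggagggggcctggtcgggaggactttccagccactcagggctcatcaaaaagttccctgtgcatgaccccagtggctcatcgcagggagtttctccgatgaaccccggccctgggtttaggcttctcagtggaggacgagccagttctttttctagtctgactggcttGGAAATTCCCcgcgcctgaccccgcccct
Relb, chr7:19629439-19629545, minus strand: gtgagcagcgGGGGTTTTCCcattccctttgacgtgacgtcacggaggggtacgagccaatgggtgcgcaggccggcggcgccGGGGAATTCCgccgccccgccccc
Cxcl10, chr5:92348890-92349058, minus strand: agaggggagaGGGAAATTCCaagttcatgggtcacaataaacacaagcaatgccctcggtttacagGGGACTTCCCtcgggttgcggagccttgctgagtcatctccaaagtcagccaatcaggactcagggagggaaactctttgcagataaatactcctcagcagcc

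Of these pairs, the Nfkbia matches lay 25 and 269 bp upstream of the start site, those of Relb 20 and 93 bp upstream and those of Cxcl10 99 and 155 bp upstream, each counted from the middle of the match. In the adult list the whole Nfkbia peak held 5 matches and the Nfkb2 peak, 2084 bp wide, held 6. The Nfkb2 and Nfkbia peaks held the same numbers, 6 and 5, in both aged lists.

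Promoter peaks were 34.4% of the adult list (33.4 to 35.4%), 30.5% of aged IgG (29.1 to 31.9%) and 31.3% of aged anti-IL-17 (30.1 to 32.5%). The order of the lists depended on their length. When every list was reduced to its 4169 strongest peaks, the shares were 28.3%, 30.5% and 27.1%, and the numbers of genes were 1157, 1231 and 1105. Most genes held a single promoter peak, and 147 adult, 38 aged IgG and 83 aged anti-IL-17 genes held 2 or 3. A further peak outside the promoter was assigned to 745 of the adult promoter genes (26.9%), to 263 of those of aged IgG (21.4%) and to 423 of those of aged anti-IL-17 (23.6%).

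Within the promoters the summits lay mostly close to the start site in every list, as the plot of summit positions shows. The median distance between midpoint and start site was 154 bp in adult and 162 bp in both aged lists. Of the adult promoter peaks, 68.0% lay within 250 bp of the start site and 68.0% covered it. The corresponding shares were 64.4% and 62.1% in aged IgG and 64.9% and 64.6% in aged anti-IL-17. Summits fell upstream and downstream of the start site about equally, with 49.4%, 50.7% and 50.2% upstream and median positions of 2, -5 and -3 bp, respectively. The rule fixed the outer limit of 1000 bp. Just inside it, between 900 and 1000 bp, lay 49 adult, 25 aged IgG and 42 aged anti-IL-17 peaks with median fold enrichments of 4.09, 3.63 and 3.75. Within a further 100 bp outside it lay 44, 23 and 29 peaks with medians of 3.91, 3.48 and 3.37.

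**Figure D1:**
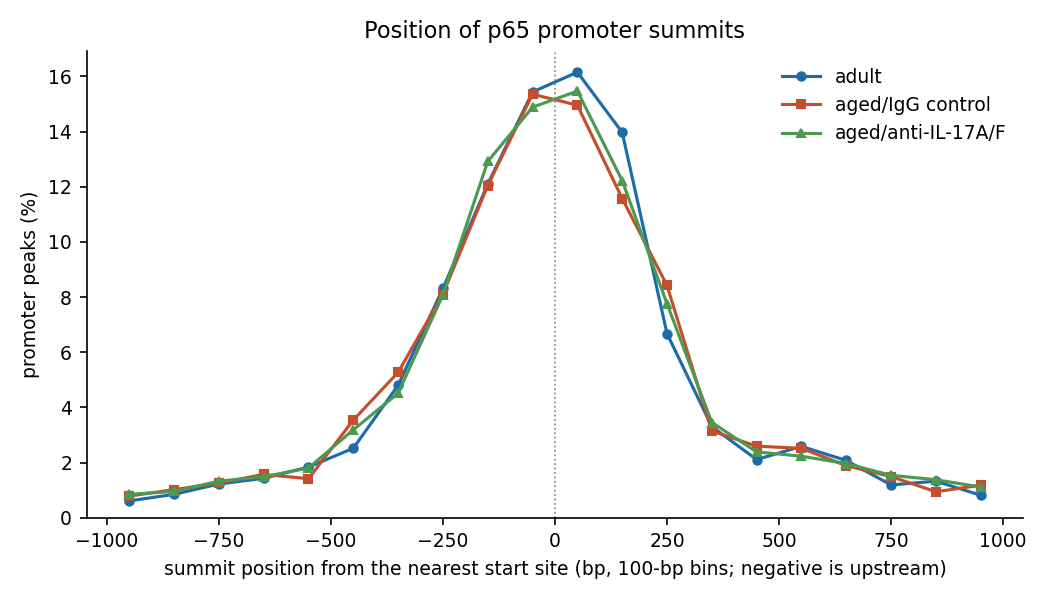
Position of the summits of promoter peaks relative to the nearest start site, in bins of 100 bp (x axis, bp, negative is upstream), as a percentage of the promoter peaks of each list (y axis). The curves of the 3 lists peak near the start site, with median summit positions of 2 bp in adult, -5 bp in aged IgG and -3 bp in aged anti-IL-17.

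With respect to the gene model, 32.9% of adult summits lay upstream of the assigned gene, 34.2% in an intron, 27.5% in a UTR and 5.45% in a coding exon. The shares in aged IgG were 33.9%, 35.1%, 25.9% and 5.04%, and those in aged anti-IL-17 were 33.4%, 35.9%, 25.4% and 5.32%. An intron here includes bases inside the annotated span of a gene with several start sites. A start site on the opposite strand of another protein-coding gene shared the region at 283 adult (9.65%), 100 aged IgG (7.87%) and 155 aged anti-IL-17 (8.24%) promoter peaks. At these divergent promoters a small shift of the midpoint moves a peak from one gene to its neighbour, which bears on the gene comparisons given further on.

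Promoter peaks were on the whole the weaker part of each list. Strength was taken from the fold enrichment of the authors, a ratio of the signal in a peak to the local background, and was compared within a list. The median fold enrichment at promoters was 3.34 in adult, 3.60 in aged IgG and 3.41 in aged anti-IL-17, against 3.73, 3.91 and 3.80 for all other peaks. As a percentile of the fold enrichments of the whole list, where 100 is the strongest, the median promoter peak stood at 40.9, 42.5 and 40.5. The other peaks stood at 54.2, 53.0 and 53.7. When each list was reduced to its 4169 strongest peaks, the median promoter fold enrichments were 4.98, 3.60 and 4.26.

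The promoter share did not fall evenly with strength. Each list was divided by fold enrichment into 5 groups of equal size, from 1 (weakest) to 5 (strongest). In group 1 of the adult list 47.1% of peaks were at promoters, then 37.5%, 31.3% and 26.5%, and 29.7% in group 5. The aged IgG list went from 41.5% in group 1 to 24.5% in group 4 and 27.7% in the strongest, and aged anti-IL-17 from 43.2% to 22.9% and 29.1%. In every list, then, the share was lowest in group 4 and higher in the strongest. Among the strongest 10% of peaks the shares were 31.5%, 29.3% and 31.8%. Peaks at promoters were slightly wider than the others, with medians of 483 against 441 bp in adult, 446 against 426 bp in aged IgG and 460 against 439 bp in aged anti-IL-17.

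The NF-κB motif was sought on both strands within 100 bp of each summit, in a window of 201 bp. It was found at 22.2% of adult promoter peaks (20.7 to 23.7%), 32.0% of those of aged IgG (29.5 to 34.6%) and 27.4% of those of aged anti-IL-17 (25.5 to 29.5%). Windows centred on all 26131 curated start sites of protein-coding genes had it at 3.41%, and windows 2000 bp to the sides of the promoter peaks at 1.98%, 1.57% and 1.89%. The order of the lists again turned with their length, since the 4169 strongest peaks of each gave promoter shares of 37.8% in adult, 32.0% in aged IgG and 37.0% in aged anti-IL-17.

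The motif was less frequent at promoters than at other peaks. The other peaks carried it at 31.8%, 40.3% and 38.3%, and the difference was -9.58 percentage points in adult (-11.5 to -7.62), -8.32 in aged IgG (-11.4 to -5.16) and -10.9 in aged anti-IL-17 (-13.4 to -8.36). Against peaks 1 to 10 kb from a protein-coding start site the adult difference was -9.74 points, against those at 10 to 50 kb -8.81 and against those over 50 kb away -11.6. Among the strongest peaks no difference was detectable in any list. In group 5 the motif was found at 54.8% of promoter and 54.5% of other peaks in adult (difference 0.325 points, -4.85 to 5.46), at 59.7% and 59.1% in aged IgG (0.604 points, -6.90 to 7.90) and at 59.4% and 57.6% in aged anti-IL-17 (1.8 points, -4.36 to 7.83). In group 1 the promoter and other shares were 7.85% and 12.5% in adult, 14.7% and 25% in aged IgG and 11.9% and 20.1% in aged anti-IL-17.

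**Figure D2:**
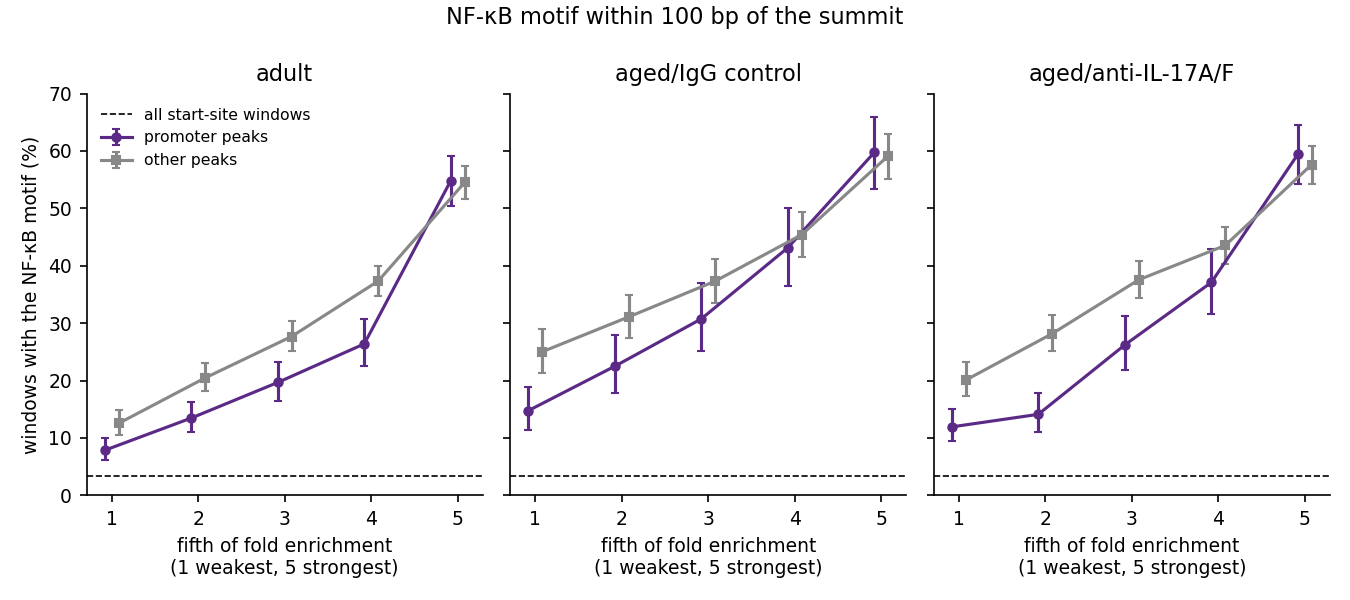
Share of 201-bp windows around the summit with an NF-κB motif (y axis, %) in 5 groups of fold enrichment (x axis, 1 weakest to 5 strongest) for promoter peaks and other peaks of each list. Error bars are 95% Wilson intervals for counting error, and the dashed line is the share in windows at all protein-coding start sites, 3.41%. Promoter shares rise from 7.85, 14.7 and 11.9% in group 1 to 54.8, 59.7 and 59.4% in group 5, where they meet those of other peaks.

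Promoter peaks with the motif were stronger than those without it. Their median fold enrichments were 4.77 against 3.18 in adult, 4.43 against 3.34 in aged IgG and 4.62 against 3.19 in aged anti-IL-17. Where the summit fell in a UTR, 15.4% of adult peaks had the motif, against 24.7% for summits upstream of the gene and 26.1% for those in an intron. The same order of UTR against upstream held in aged IgG (23.1% and 37.1%) and in aged anti-IL-17 (20.7% and 30.6%). The matches lay close to the summit. Per 100 promoter peaks, adult had 19.3 matches within 50 bp of the summit, 7.84 between 50 and 100 bp, 4.53 between 100 and 150 bp and 1.81 between 450 and 500 bp. In aged IgG the first of these values were 29.1, 10.6 and 6.54.

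Over the whole width of the peak at least 1 match was present in 890 adult (30.3%), 526 aged IgG (41.4%) and 695 aged anti-IL-17 (36.9%) promoter peaks, and at least 2 in 228, 136 and 177, where overlapping matches were counted separately. The most common single word was GGGACTTTCC, the κB site first described in the immunoglobulin κ enhancer. It was present at 40 adult, 34 aged IgG and 40 aged anti-IL-17 promoter peaks, and in 30 of the windows at all start sites. Among peaks with a motif, it made up 6.14%, 8.37% and 7.75% at promoters and 10.2%, 10.9% and 11.2% elsewhere. The word GGGGAATTCC, seen above at Nfkbib, Relb and Tnip1, was at 23, 18 and 21 promoter peaks, with median fold enrichments of 10.02, 6.32 and 9.12. Elsewhere the peaks with this word had medians of 4.76, 4.62 and 4.67. Other words did not all follow this order, since GGGAATTTCC had medians of 4.54, 4.48 and 4.29 at promoters and 5.27, 4.76 and 4.84 elsewhere.

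The base composition and other motifs around promoter summits were set beside those of all start-site windows. Windows at promoter peaks had a median GC content of 64.7% in adult, 63.7% in aged IgG and 64.7% in aged anti-IL-17, above the 60.2% of all start-site windows. They held a median of 16, 15 and 16 CG dinucleotides, against 11 in all start-site windows and 3 at the other peaks. Among 8 further motifs searched on both strands, the SP/KLF box GGGCGGG was at 29.4%, 29.2% and 27.9% of promoter peaks, near the 30.1% of all start-site windows and above the 6.85%, 6.04% and 6.36% of the other peaks. The ETS motif CCGGAAG (10.8%, 8.90% and 9.89%, against 9.53% of start-site windows) and the NRF1 motif (4.77%, 4.96% and 3.88%, against 5.15%) were likewise near the level of promoters in general. They were at 2.25%, 1.83% and 2.18%, and at 0.47%, 0.38% and 0.46%, of the other peaks.

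AP-1, the factor of the JUN and FOS proteins, showed the opposite arrangement. Its motif TGANTCA was at 4.74% of adult, 5.35% of aged IgG and 5.58% of aged anti-IL-17 promoter peaks, close to the 4.0% of start-site windows, but at 17.7%, 17.9% and 18.5% of the other peaks. In adult the difference was -13.0 percentage points (-14.2 to -11.7). The CCAAT box was at 19.5%, 21.3% and 18.4% of promoter peaks, below the 27.1% of start-site windows. CRE (TGACGTCA) was at 2.32%, 2.44% and 2.23%, YY1 (AAGATGGCG) at 1.81%, 2.13% and 1.91% and the E-box (CACGTG) at 5.59%, 5.28% and 7.02%. Of the motifs searched, NF-κB was thus the only one whose promoter share exceeded that of all start-site windows severalfold, as the plot of motif matches shows. A match describes the letters and is not a shown site of binding.

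**Figure D3:**
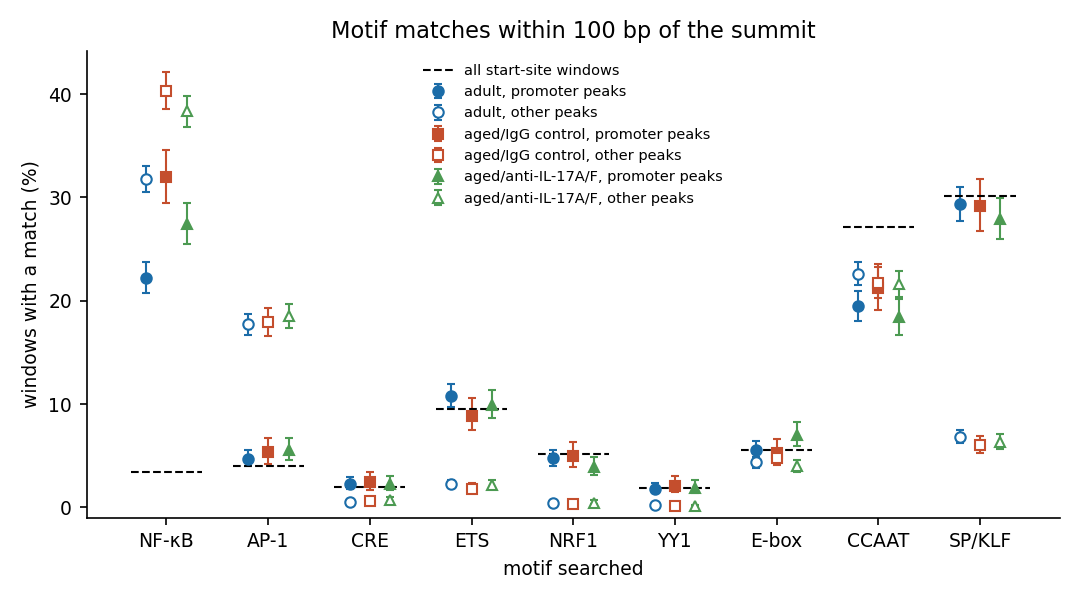
Share of 201-bp windows around the summit with a match to each of 9 motifs (y axis, %) for promoter peaks (filled symbols) and other peaks (open symbols) of the 3 lists. Error bars are 95% Wilson intervals for counting error and dashes mark windows at all protein-coding start sites. NF-κB stands at 22.2 to 32.0% of promoter peaks against 3.41% of start-site windows, while AP-1 stands at 4.74 to 5.58% of promoter and 17.7 to 18.5% of other peaks.

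The named genes below were read against the share of all protein-coding genes with a promoter peak, which was 13.3% in adult, 5.88% in aged IgG and 8.57% in aged anti-IL-17, with 4.77% in all 3 lists. They count every gene, among them 1107 olfactory and 352 vomeronasal receptor genes, of which Olfr323 alone had a promoter peak, in adult. All 5 genes for NF-κB subunits had a promoter peak in every list. Nfkb2, which encodes p100/p52, had fold enrichments of 18.9 in adult, 16.5 in aged IgG and 19.6 in aged anti-IL-17. Relb, whose product pairs with p52, had 16.8, 13.5 and 15.8. Rela, the gene of p65 itself, had 13.0, 10.03 and 13.0 and Rel, the gene of c-Rel, 11.2, 10.1 and 11.4, and neither had a motif within 100 bp of a summit. Nfkb1, which encodes p105/p50, stood lowest of the subunits in each list, with 7.63, 5.47 and 6.25, at percentiles 91.7, 80.5 and 86.02.

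All 6 genes of the IκB family also had a promoter peak in every list. Nfkbib (IκBβ) and Nfkbia (IκBα) were among the 4 strongest of every list, with 23.6, 17.5 and 22.3 for Nfkbib and 20.6, 19.2 and 18.7 for Nfkbia. Nfkbie (IκBε) had 16.9 in adult, 7.89 in aged IgG and 10.3 in aged anti-IL-17, at percentiles 99.6, 93.0 and 96.9. Nfkbiz, whose product IκBζ works as a nuclear cofactor of the IL-17 response, had 10.6, 5.58 and 8.34, at percentiles 96.9, 81.4 and 94.0. Nfkbid (IκBNS) ran the other way, with 7.81, 9.89 and 10.4 at percentiles 92.2, 97.4 and 97.0. Bcl3 stood at 6.15, 4.29 and 5.16. Without replicates, none of these differences between lists could be set against an error.

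Among 12 genes of A20 and other ubiquitin-editing inhibitors, 5 had a promoter peak in adult, 4 in aged IgG and 5 in aged anti-IL-17. Tnfaip3, the gene of the deubiquitinase A20, had 13.8, 14.2 and 21.6, at percentiles 98.8, 99.6 and 99.98. Cyld, another deubiquitinase that restrains the pathway, had 18.5, 10.1 and 14.4. Tnip1, which encodes an A20-binding protein, had 4.98, 4.31 and 4.83, and Zc3h12a, the gene of the RNase regnase-1, 5.98, 3.54 and 4.67. Tax1bp1, an adaptor of A20, had a promoter peak in adult (3.24) and aged anti-IL-17 (3.11) only.

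**Figure D4:**
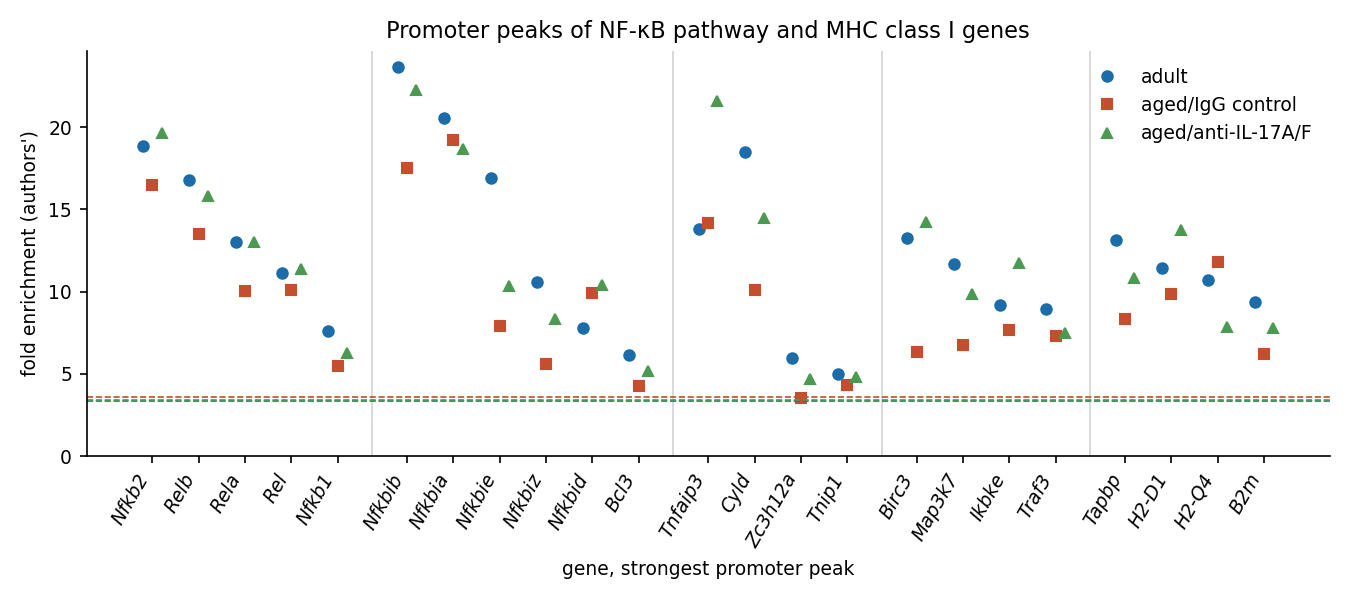
Fold enrichment of the authors (y axis, linear, from 0) for the strongest promoter peak of each gene in adult, aged IgG and aged anti-IL-17, with the genes grouped from left to right as subunits, IκB family, A20 group, TRAF and kinase group and MHC class I. Dashed lines mark the median promoter peak of each list, at 3.34, 3.60 and 3.41. Nfkbib, Nfkbia, Nfkb2 and, in aged anti-IL-17, Tnfaip3 stand highest, and each point is 1 pooled list without error.

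Upstream of the inhibitors, 10 of 23 TRAF, IAP, NIK and IKK genes had a promoter peak in adult, 7 in aged IgG and 8 in aged anti-IL-17. Birc3 (cIAP2), a ubiquitin ligase of the TNF receptor complex, had 13.2, 6.32 and 14.3, at percentiles 98.6, 86.8 and 99.4. Map3k7, the gene of TAK1, had 11.7, 6.77 and 9.87, and Ikbke (IKKε) had 9.22, 7.68 and 11.8. Traf3, a brake on the noncanonical branch, had 8.94, 7.32 and 7.49. Map3k14 (NIK) and Traf2 were called in adult (3.999 and 3.58) and aged anti-IL-17 (3.15 and 3.49), and Tab3 and Traf6 in adult alone (3.33 and 2.68). The 5 members that were not called in every list, Rnf31 among them, had fold enrichments between 2.68 and 3.999.

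Among 34 genes of TNF superfamily ligands and receptors, 7, 3 and 5 had a promoter peak (20.6%, 8.82% and 14.7%), led by Tnfsf13 (APRIL) with 9.08, 5.99 and 6.29 and Tnfsf15 (TL1A) with 6.20, 4.56 and 6.46. Fas, the death receptor gene, had 3.95, 3.02 and 4.19. Of 53 chemokine and chemokine receptor genes, 4 had one in adult (7.55%), 3 in aged IgG (5.66%) and 3 in aged anti-IL-17 (5.66%), beside 13.3%, 5.88% and 8.57% of all genes. The strongest were Cxcl10, at 12.0, 8.65 and 9.24, and the neutrophil chemokine gene Cxcl1, at 8.18, 4.38 and 7.76, at percentiles 93.1, 64.3 and 92.5.
Cxcl1, chr5:90891164-90891193: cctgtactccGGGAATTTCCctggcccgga

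Of 57 interleukin and interleukin receptor genes, 10, 6 and 10 had a promoter peak (17.5%, 10.5% and 17.5%). The shares of all genes were 13.3%, 5.88% and 8.57%. Il6st, which encodes the shared receptor chain gp130, had 13.6, 8.35 and 7.88, and Il4ra had 11.4, 8.96 and 7.29. The 12 members that were not called in all 3 lists had fold enrichments between 2.19 and 4.92. Among them, Il23a, the gene of the IL-23 p19 subunit, was called in aged IgG (3.48, percentile 38.6) and aged anti-IL-17 (3.404) and not in adult, and Il1r1 (2.40) and Il1r2 (2.93) in aged IgG alone. The Il1r2 peak overlapped peaks in both other lists, which were assigned to Gm16894. Il6 (3.07), Il12rb2 (3.27) and Il1rn (2.31) were called in adult alone. Il9 and Crlf2, at whose regulatory areas the study reports p65 in aged IgG, had no promoter peak in any list. The study assigned peaks to the closest gene without a stated distance limit, so that its peaks can lie outside the promoter class.

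Of 21 genes of IL-17 cytokines, receptors and adaptors, 7 had a promoter peak in adult, 3 in aged IgG and 6 in aged anti-IL-17. The 3 that were shared by all lists were Nfkbiz, Zc3h12a and Hsp90aa1, the last at 3.89, 2.84 and 3.16. The receptor gene Il17ra was called in adult (2.91, percentile 21.2) and aged anti-IL-17 (2.41, percentile 3.19), and Il17rc in adult alone (2.78, percentile 16.1). Traf3ip2, which encodes the adaptor Act1, was called in adult (3.18), and its peak overlapped an aged IgG peak of 3.13 that was assigned to the antisense noncoding neighbour Gm16364. Apart from Nfkbiz and Zc3h12a, these promoter peaks were thus at or below percentile 58.5 of their lists.

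JAK-STAT genes had a promoter peak at 12, 6 and 9 of 26. Cish, a cytokine-induced inhibitor, had 8.71, 6.37 and 7.85 and Ptpn2, a phosphatase acting on JAKs, 8.59, 5.26 and 7.07. Stat3 had 3.71, 3.04 and 4.37. Of 26 genes of the Toll-like receptor pathway, 3, 2 and 2 had a promoter peak. These were 11.5%, 7.69% and 7.69% of the list, beside 13.3%, 5.88% and 8.57% of all genes. The genes called were Tlr2 (3.89, 4.12 and 5.07), Irf5 (2.68, 3.20 and 3.97) and, in adult, Nod2 (2.79).

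MHC class I genes had strong promoter peaks. Of 21 genes of MHC class I and antigen processing, 11 had a promoter peak in adult (52.4%), 9 in aged IgG (42.9%) and 11 in aged anti-IL-17 (52.4%). Tapbp, the gene of the peptide-loading protein tapasin, had 13.1, 8.33 and 10.8. The class I heavy chain genes H2-D1 and H2-K1 had 11.4, 9.87 and 13.7, and 7.81, 6.83 and 10.6, respectively, and H2-Q4 had 10.7, 11.8 and 7.84. B2m, which encodes the light chain, had 9.35, 6.18 and 7.79. Reads of H2 genes can be shared among near-identical copies, so that the values of single heavy chain genes are uncertain. The matches are shown to compare the promoters.
H2-D1, chr17:35262913-35262942: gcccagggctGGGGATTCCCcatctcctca
H2-K1, chr17:34000439-34000468: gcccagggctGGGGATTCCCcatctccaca
H2-Q4, chr17:35379433-35379462: gatcaggggtGGGGATTTCCcatctcccca
Tapbp, chr17:33919591-33919620: gaccagatcgGGGAATTTCCagttcctcac

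The middle of the match lay 166 bp upstream of the start site at H2-D1, 121 bp upstream at H2-K1 and 169 bp upstream at H2-Q4. At H2-D1 and H2-K1 the capital letters were the same. In Tapbp the match lay 128 bp downstream, in the UTR. Psme2, an activator subunit of the immunoproteasome, had 7.90, 4.79 and 6.89, and Tap1, a peptide transporter gene without a motif near its summit, 5.69, 4.63 and 6.00.

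Among interferon regulatory factors, interferon receptors and interferon target genes, 9, 7 and 8 of 23 genes had a promoter peak. Ifnar1, a chain of the type I interferon receptor, had 14.5, 11.4 and 14.6 with no motif near its summits. Irf1 had 11.4, 8.71 and 10.7, and Ifngr1 and Ifngr2, the chains of the receptor for interferon gamma, had 8.13, 5.67 and 6.65, and 6.19, 6.33 and 7.90. For 29 survival and apoptosis genes the numbers were 11, 8 and 9. They were led by Bbc3, the gene of the proapoptotic protein PUMA, at 15.0, 10.7 and 12.7, and Birc5 (survivin), at 9.74, 10.8 and 10.8. Casp4 had 9.08, 7.74 and 8.91, and Fadd, an adaptor of death receptors, 7.97, 6.38 and 5.47.

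After subunits and IκB genes, AP-1 and immediate early genes had the highest share of the lists counted, with 17 of 25 in adult (68.0%), 15 in aged IgG and 14 in aged anti-IL-17. These peaks were weaker, with a median percentile of 70.4, 49.3 and 50.3, and 3, 3 and 1 of them had the NF-κB motif near the summit. Maff had 7.99, 5.47 and 6.17, Fosl1 6.94, 4.70 and 7.93, Fos 4.71, 4.29 and 5.81 and Junb 4.52, 3.14 and 3.46. Of 23 NRF2 and oxidative stress genes, 10, 7 and 10 had a promoter peak. The antioxidant genes Gpx1 (12.1, 6.40 and 7.80) and Txn1 (11.1, 5.96 and 5.16) led in adult and the metallothionein gene Mt2 (10.3, 8.74 and 13.1) in both aged lists. Sod2, the mitochondrial superoxide dismutase gene, had 6.14, 4.63 and 5.50.

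**Figure D5:**
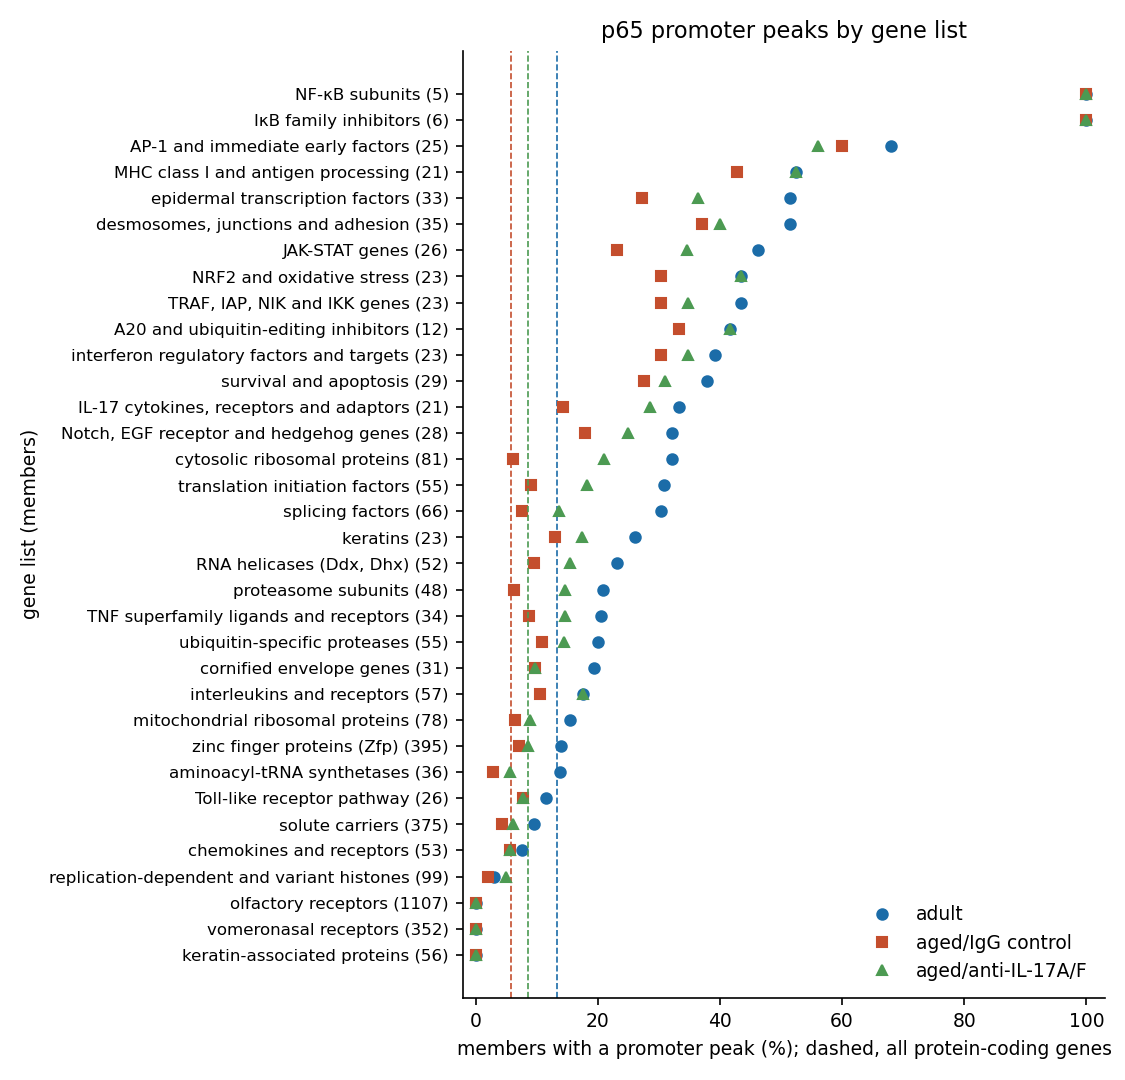
Share of the members of each gene list with a promoter peak (x axis, %) in adult, aged IgG and aged anti-IL-17, with the number of members in parentheses and dashed lines at the share of all protein-coding genes, 13.3, 5.88 and 8.57%. Symbols of the 3 lists cover each other at 100% for subunits and IκB genes and near 0% for receptor and keratin-associated families.

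Of 33 epidermal transcription factor genes, 17 had a promoter peak in adult, 9 in aged IgG and 12 in aged anti-IL-17, and the median percentiles of these peaks were 28.9, 71.4 and 41.1. The strongest included those of the epithelial ETS factor genes Ehf, at 12.0, 5.29 and 6.53, and Elf3, at 10.9, 9.51 and 7.71, and Tcf7l1, at 7.05, 7.28 and 8.67. Both ETS factor genes carried a motif close to the adult summit, 15 bp away at Ehf and 3 bp away at Elf3. Genes of desmosomes, junctions and adhesion had a promoter peak at 18, 13 and 14 of 35, with median percentiles of 43.3, 37.3 and 48.8. Notch2, among 28 Notch, EGF receptor and hedgehog genes of which 9, 5 and 7 had one, had 12.8, 8.22 and 9.48.

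Keratin genes had a promoter peak at 6, 3 and 4 of 23 (26.1%, 13.0% and 17.4%). Cornified envelope genes had one at 6, 3 and 3 of 31 (19.4%, 9.68% and 9.68%). The shares of all genes were 13.3%, 5.88% and 8.57%. Krt16, a keratin of stressed epidermis, was called in each list at 3.98, 3.70 and 3.93. Krt15 (4.76 and 4.34) and Krt14 (3.22 and 3.91), keratins of basal cells, were called in adult and aged anti-IL-17 and not in aged IgG. Evpl, the envoplakin gene, had 2.39 in both adult and aged anti-IL-17, at percentiles 3.58 and 2.91. Sprr1a had 5.21, 4.36 and 5.35 and Spink5, which encodes a protease inhibitor, 5.30, 3.60 and 3.71. Dll1, a Notch ligand gene, had no promoter peak in any list, and peaks 1000 bp or more away, which the study could assign, were not counted here. The matches of Krt14 and Krt16 are shown as examples from keratin genes.
Krt14, chr11:100206118-100206147: ttgtctcttgGGAAAGTCCCacccttggtc
Krt16, chr11:100249031-100249060: gactgactgaGGAAATCCCCaggggaactg

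Housekeeping families are read here against the 13.3%, 5.88% and 8.57% of all genes, which also fall from the longest to the shortest list. Of 81 genes of cytosolic ribosomal proteins, 26 had a promoter peak in adult (32.1%), 5 in aged IgG (6.17%) and 17 in aged anti-IL-17 (21.0%), with a median adult percentile of 29.1. Translation initiation factors had 17, 5 and 10 of 55 (30.9%, 9.09% and 18.2%) and splicing factors 20, 5 and 9 of 66 (30.3%, 7.58% and 13.6%). Mitochondrial ribosomal proteins had 12, 5 and 7 of 78 (15.4%, 6.41% and 8.97%), aminoacyl-tRNA synthetases 5, 1 and 2 of 36 (13.9%, 2.78% and 5.56%) and histones 3, 2 and 5 of 99 (3.03%, 2.02% and 5.05%). Proteasome subunits had 10, 3 and 7 of 48 (20.8%, 6.25% and 14.6%). Rps27a, the strongest ribosomal protein gene, had 6.01, 5.68 and 5.70 and was called in all lists. These shares were not computed at equal list length. A promoter peak is not expression. Marker genes of T cells (5), endothelial cells (4) and melanocytes (5) had none in any list. Of the other marker lists, Krt14 alone of 7 keratinocyte markers, Cd74 alone of 7 myeloid markers (4.27 and 3.37) and Pdgfra alone of 6 fibroblast markers (4.16 and 3.34) were called, each in adult and aged anti-IL-17.

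The 3 lists together had promoter peaks at 3086 genes, of which 999 (32.4%) were called in all 3, 1097 (35.5%) in adult alone, 545 in adult and aged anti-IL-17, 213 in aged anti-IL-17 alone, 133 in adult and aged IgG, 62 in aged IgG alone and 37 in both aged lists. By overlap of at least 1 bp, 35.4% of adult promoter peaks (33.7 to 37.2%), 81.9% of those of aged IgG (79.7 to 83.9%) and 55.2% of those of aged anti-IL-17 (53.0 to 57.5%) had a counterpart in both other lists. The other peaks had one at 44.0%, 85.1% and 59.6%. With every list cut to 4169 peaks by strength, the promoter shares were 61.6%, 57.4% and 64.2%, so that the order of the lists changed with their length.

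Sharing rose steeply with strength. In adult the share with counterparts in both other lists was 6.23% in group 1, 15.3%, 27.7% and 56.5% in the next and 96.4% in group 5, against 9.31% in group 1 and 96.2% in group 5 of the other peaks. In aged IgG it rose from 61.3% to 100%, and from 64.5% to 99.7% among the other peaks. In aged anti-IL-17 it rose from 27.3% over 54.8% in group 3 to 99.1%, against 25.5%, 49.0% and 99.4% among the other peaks. There, overlap with adult in group 3 was 92.2% at promoters and 84.6% elsewhere (difference 7.55 points, 3.48 to 11.1). For each of the 200 strongest genes of a list, the strongest promoter peak overlapped a peak in both other lists. Adult promoter peaks found in all lists had a median fold enrichment of 5.17 and the motif at 38.9% (36.0 to 41.9%), and those found in adult alone 2.91 and 10.7% (9.06 to 12.6%). The 229 peaks found in aged anti-IL-17 alone had 2.81 and the motif at 5.68% (3.35 to 9.47%). The 55 found in aged IgG alone had 2.91 and the motif at 5.45% (1.87 to 14.9%), that is at 3 peaks. Start-site windows had it at 3.41%.

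The top of the lists was held in common but not in the same order. Of the 100 strongest promoter genes of each list, 55 were in all 3, and of the 10 strongest, 3 were, namely Nfkbib, Nfkbia and Nfkb2. In each list 72 of the 100 strongest had the motif near the summit. Besides the pathway genes, the top 10 of at least 1 list included Gpbp1 (22.7, 11.9 and 14.1), Stap2, which encodes a signaling adaptor (19.5, 14.1 and 12.5), Rras, a RAS-related GTPase gene (18.2, 10.9 and 17.6), Bcl10, a component of the complex that links antigen receptors to IKK (17.03, 13.6 and 13.8), and Pnrc1 (15.1, 14.0 and 14.4). Gpbp1 and Pnrc1 had no motif within 100 bp of a summit, although the adult Gpbp1 peak held matches 128 bp away. Over the genes called in both lists of a pair, Spearman's rho of fold enrichment was 0.77 for adult and aged IgG (1132 genes), 0.75 for adult and aged anti-IL-17 (1544 genes) and 0.78 for the aged lists (1036 genes), as a description across genes, which are not independent replicates.

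Genes called in one list and not in another were mostly weak. In adult, 1642 genes had a promoter peak that aged IgG lacked, 7.85% of all genes, with a median percentile of 27.7 and the motif at 13.3%, against 74.8 and 36.3% for the 1132 genes called in both. At 25 of the 1642 the strongest promoter peak overlapped an aged IgG peak. Of the 1642, 27 stood at or above percentile 80, and 11 of these 27 overlapped an aged IgG peak. In 8 of the 11 the strongest such peak was assigned to another gene, and in 3 it kept its gene. In the reverse direction, 99 genes (0.473% of all genes) were called in aged IgG and not in adult, with a median percentile of 15.9 and none at or above percentile 80. Between the aged lists, 195 genes (0.932%) were called with control IgG and not with anti-IL-17A/F, and 758 (3.62%) the other way round, with median percentiles of 16.8 and 23.5.

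Counted by overlap instead of by gene, 1758 adult promoter peaks (59.9%) had no counterpart in aged IgG, as did 2888 of the 5591 other peaks (51.7%). At or above percentile 80, 16 of 508 promoter peaks (3.15%) and 40 of 1198 other peaks (3.34%) had none. The strongest at a promoter was at Ddi2, a protease gene of the proteasome stress response, with 6.52 in adult. Of the 231 aged IgG promoter peaks at or above percentile 80, 0 lacked a counterpart in adult and 0 in aged anti-IL-17, and of the 603 other peaks 1 did in each case. The strongest promoter peak without one in adult was at Rab10 with 3.899. Of the 350 in aged anti-IL-17, 3 lacked one in aged IgG, as did 4 of 853 other peaks, and the strongest at a promoter was at Osmr, the oncostatin M receptor gene, with 5.84.

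Most genes called in one list and not in another had no overlapping peak there. The strongest genes that appeared in adult alone show how the assignment can nevertheless decide a call. They were Map3k8, the gene of the kinase TPL2 (10.2), Rps6kb1 (8.25), Nfya (7.77), Baz1a (7.14) and Qk (6.45), and each of the 5 peaks overlapped a peak in both aged lists. In the aged lists the Map3k8 peak was assigned to the noncoding 4833419F23Rik (8.29 in aged IgG and 12.8 in aged anti-IL-17), that of Qk to the noncoding Cahm and that of Rps6kb1 to its divergent neighbour Tubd1. The Baz1a peak stayed with its gene, but its midpoint moved from 996 bp in adult to 1014 and 1000 bp in the aged lists and thus left the promoter class. Likewise, the peaks of Apex1 (8.23 and 8.17 in adult and aged IgG) and Osgep (7.36 in aged anti-IL-17) overlapped. So did those of Tax1bp3 and Emc6, of Cnbd2 and Scand1, and of Rmi1 and Hnrnpk. Rnf31, which encodes a ubiquitin ligase of the linear chain complex, appeared in aged IgG alone (3.70), over DNA assigned to Psme2 in both other lists. The pair of Nfya and Oard1 is shown as an example, since the same match lies in both.
Nfya, chr17:48410117-48410146, minus strand: aatttccggcGGGAAATTCCgtaggctccc
Oard1, chr17:48410117-48410146, plus strand: gggagcctacGGAATTTCCCgccggaaatt

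Nfya encodes a subunit of the CCAAT-binding factor NF-Y. The adult peak there, from 48409204 to 48410470 on chromosome 17, had its midpoint 17 bp upstream of the Nfya start, whereas the aged IgG peak, from 48409755 to 48410371, had it 63 bp downstream of the Oard1 start. Their summits were 10 bp apart. The summits of Apex1 in adult and of Osgep in aged anti-IL-17 were 48 bp apart.

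Among genes called in all lists, ranks still shifted. From adult to aged IgG falls in percentile that were among the largest were those of Usp16 (86.2 to 1.24), Actn4 (85.1 to 4.87) and Herpud2 (81.0 to 1.42). Their percentiles in aged anti-IL-17 were 43.0, 63.3 and 47.9, between those of the other lists. The genes were picked for their fall from adult to aged IgG, so that a value in between can follow from the picking alone. The compared peaks overlapped, with summits 1 bp apart at Actn4, 38 bp at Herpud2 and 239 bp at Usp16 between adult and aged IgG. Hivep2, a gene of κB-binding zinc fingers, went from 95.8 to 4.10 by the same count, but there different peaks were compared. The aged IgG peak with its summit 9 bp from the adult one had a fold enrichment of 9.31, near the adult 9.64, and its midpoint lay 1271 bp from the start site and thus outside the promoter class. In aged anti-IL-17 the peak at this place had 8.02, with its midpoint at 1374 bp. Rises that were among the largest were those of Esyt2 (9.53 to 62.4), Pacc1 (35.2 to 76.0), Tmod3 (5.20 to 45.5), Hsf1, the heat shock factor gene (5.91 to 45.6), and Mpp5 (16.8 to 48.9), none of which had the motif near a summit. From aged IgG to aged anti-IL-17, Amz2 rose from 11.3 to 87.6, Smc4 from 6.22 to 77.0 and Cebpg from 4.23 to 72.6, while Ift140 fell from 73.1 to 2.82 and Tdrd7 from 90.6 to 28.8. Over all genes shared by adult and aged IgG the median shift was -16.2 percentile points, and the shifts at percentiles 5 and 95 were -58.0 and 12.3. Percentiles refer to lists of different length, and the part of length in these shifts was not tested.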

How the data were processed

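Per the study's methods, reads were trimmed by the authors (Trimmomatic 0.36), mapped with BWA to mm10 and pooled over the 4 mice of each condition. Duplicates were then taken out, the pools were brought to equal read numbers, and MACS2 called peaks (q 0.01, fixed fragment length). The use of the inputs in peak calling is not stated. Merging removed the variation between animals, and a peak near the threshold can be in one list and not in another with little difference in signal. Equal read numbers do not equalise the efficiency of the immunoprecipitation. The read depth behind a peak is unknown from these lists. Every deposited peak has a score, a fold enrichment over the local background (a ratio), the −log10 p and −log10 q and the summit, and of these the authors' fold enrichment, −log10 q and summit were used here.

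From the lists, each peak was assigned by its midpoint to the nearest curated start site of RefSeq GRCm38.p6, the assembly of mm10, on chromosomes 1 to 19 and X, with a protein-coding gene preferred at equal distance. Motif matches on either strand were taken up to 100 bp from the summit, and peaks overlapping by at least 1 bp were called shared. Gene values are those of the strongest promoter peak. The members and the gene lists were chosen with earlier results of these data known. Named were the 10 strongest promoter genes of each list, the leading and the inconstantly called members of each gene list, the leaders of each class of presence, the largest shifts of percentile, the genes named by the study and those with most motif matches or peaks. A few genes that meet this rule are not reported here. At the genes named for a shift of percentile, overlap of the compared peaks was checked after their values were seen. Some genes (Ddi2, Osmr, Rab10 and the partners in pairs of genes with overlapping peaks) were named after their values were seen. Of the list symbols, 5 had no match (Cxcl11, Il36rn, Mx1, Flg and Trac) and were left out. Alternatives were other distance limits, annotations, windows, overlaps and thresholds, and lists of equal length.

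Python 3.11.15 was used with numpy 2.4.6, pandas 2.3.3, scipy 1.17.1, pysam 0.24.0, samtools 1.23.1 and matplotlib 3.10.9. Assignment and overlap were checked against bedtools 2.31.1, and motif and interval steps were tested on simulated data.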

Additional observations from a re-analysis of the deposited data

How the results depend on the processing

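No replicates exist, so that whether a difference between lists exceeds the variation between mice cannot be told. Of 137 values under an alternative, 73 moved by less than their counting interval or, for numbers of genes, by less than 1.5 times, and 64 moved by more. Among the 73 are 5 values of aged IgG at an equal number of peaks, which keep that whole list and could not move. Where 3 values are given they are for adult, aged IgG and aged anti-IL-17, and where 2 are given they are for adult and aged anti-IL-17 unless said otherwise. No paired analysis was possible because each condition has 1 pooled list. The cause of each move was not tested beyond what the alternative itself changes.

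The promoter share was 30.1%, 26.2% and 27.1% with a limit of 500 bp, 38.4%, 34.4% and 35.3% with 2000 bp, 36.6%, 32.5% and 33.3% with all RefSeq transcripts, 30.1%, 27.5% and 27.7% with a −log10 q of at least 10, and 28.3% and 27.1% at an equal number of peaks. Genes numbered 1656, 800 and 1122 with a −log10 q of at least 10, and 1157 and 1105 at an equal number of peaks. The NF-κB motif share was 20.3% in adult with 500 bp, 37.8% and 37.0% at an equal number, 30.3%, 41.4% and 36.9% over the whole peak, 29.8%, 41.8% and 36.4% within 250 bp of the summit, 15.3%, 23.4% and 19.8% within 50 bp, and 31.8%, 41.5% and 37.3% with a −log10 q of at least 10. The promoter share minus that of other peaks was -11.7 points in adult with 500 bp, -5.31 and -7.28 at an equal number, -6.99, -4.74 and -7.23 over the whole peak, -7.39, -4.31 and -7.74 within 250 bp, and -6.49, -4.35 and -6.71 with a −log10 q of at least 10. It stayed below 0 in each of these. Median fold enrichment at promoters was 4.98 and 4.26 at an equal number and 4.18, 4.31 and 4.24 with a −log10 q of at least 10. Presence in all 3 lists was 61.6%, 57.4% and 64.2% at an equal number, 42.0%, 87.6% and 62.0% with a −log10 q of at least 10, 30.5%, 70.3% and 49.0% with an overlap of 50% of both peaks, 33.1%, 76.0% and 51.8% with summits within 200 bp, and 84.5% and 56.8% for the aged lists with the list labelled adult left out, an alternative chosen after seeing the data.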
